A study of Mus musculus with 38 samples.

Results

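Slc1a2, Slc1a3, Aqp4, Gfap, Aldh1l1, Gja1, Glul, Aldoc, S100b and Sox9 are genes that the adult brain expresses mainly in astrocytes, and they were taken by symbol from the deposited count table, in which they are 10 of 54165 genes. Messenger RNA was sequenced from the prefrontal cortex (PFC) and the hypothalamus (Hypo) of adult FVB/NJ mice of both sexes. Ube3a2X mice (Ube3a2x in the labels) were homozygous for a transgene that adds copies of Ube3a, the gene of an E3 ubiquitin ligase, and their controls were wild-type (WT) littermates without it. The transgene encodes a Ube3a tagged at its C terminus, and all Ube3a2X animals came from 1 transgenic line. Each sex and genotype gave 5 PFC libraries. In the Hypo there were 4 WT and 5 Ube3a2X libraries of each sex, so that 20 PFC and 18 Hypo libraries came from 25 mice, of which 13 gave both tissues and 12 gave only 1. The PFC was collected as small punches and the Hypo was excised whole, with different RNA kits and input amounts, so the region and its handling cannot be told apart in any comparison of the tissues. In bulk tissue, fewer astrocytes and less RNA per astrocyte cannot be told apart either.

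Astrocytes take up transmitter, potassium and water around synapses and vessels. Slc1a2 (GLT-1) and Slc1a3 (GLAST) are their glutamate transporters, and Glul, glutamine synthetase, turns the glutamate taken up into glutamine that is passed back to neurons. Aqp4 is the water channel of the end feet on vessels, and Gja1 encodes connexin 43, which joins astrocytes into a network through gap junctions. Gfap is the intermediate filament protein that is strong in white matter and border astrocytes and rises when astrocytes react to injury, whereas cortical grey matter astrocytes hold little of it. Aldh1l1, an enzyme of folate metabolism, and Aldoc, a glycolytic aldolase, are used as broad astrocyte markers. S100b is a calcium-binding protein that some oligodendrocytes also make, and Sox9 is the transcription factor that starts the glial programme. Glul, Aldoc and Slc1a2 transcripts are also known from other brain cells, so that the genes mark astrocytes without being exclusive to them.

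Gene positions are given on GRCm38, the build of the reads. Slc1a2 (ENSMUSG00000005089) lies at chr2:102658659-102790784, Slc1a3 (ENSMUSG00000005360) at chr15:8634124-8710764, Glul (ENSMUSG00000026473) at chr1:153899944-153909723 and Gja1 (ENSMUSG00000050953) at chr10:56377330-56402513. Gfap (ENSMUSG00000020932) lies at chr11:102887336-102900912, Aldoc (ENSMUSG00000017390) at chr11:78322968-78327781 and Sox9 (ENSMUSG00000000567) at chr11:112782224-112787760, all on the same chromosome. Aldh1l1 (ENSMUSG00000030088) lies at chr6:90486427-90600203 and S100b (ENSMUSG00000033208) at chr10:76253853-76261159, and Aqp4 has the identifier ENSMUSG00000024411. All 10 are protein-coding genes counted over their exons. In the annotation, 7 of them share ground with another gene, and for 6 of these (Slc1a2, Aqp4, Gfap, Aldh1l1, Glul and S100b) a partner lies on the opposite strand. The kit kept the strand, but the strand setting of the counting was not given in the sources used here, so reads of those partners (Dip2a beside S100b and Teddm2 beside Glul are the named ones) could not be separated with certainty.

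To show the DNA in front of genes that differed between the tissues and of one that was not called, the 250 bases before the RefSeq start (GRCm38.p6) are printed for Gfap and Gja1, both higher in the Hypo, and for Slc1a3. They are written from 5′ to 3′ on the strand of the gene, with capitals marking matches to the motifs searched, and none of the 3 windows overlaps an annotated exon.
Gfap (chr11:102897201-102897450, minus strand): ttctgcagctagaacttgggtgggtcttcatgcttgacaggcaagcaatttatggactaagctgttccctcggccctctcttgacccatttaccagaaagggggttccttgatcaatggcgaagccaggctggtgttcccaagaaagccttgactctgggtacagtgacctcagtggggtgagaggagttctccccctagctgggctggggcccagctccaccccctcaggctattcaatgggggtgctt
Gja1 (chr10:56377050-56377299, plus strand): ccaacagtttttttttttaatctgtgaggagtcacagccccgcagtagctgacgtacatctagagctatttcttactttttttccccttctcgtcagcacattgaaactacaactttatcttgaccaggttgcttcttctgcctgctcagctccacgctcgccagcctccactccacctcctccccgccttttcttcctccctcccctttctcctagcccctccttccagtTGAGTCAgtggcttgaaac
Slc1a3 (chr15:8710808-8711057, minus strand): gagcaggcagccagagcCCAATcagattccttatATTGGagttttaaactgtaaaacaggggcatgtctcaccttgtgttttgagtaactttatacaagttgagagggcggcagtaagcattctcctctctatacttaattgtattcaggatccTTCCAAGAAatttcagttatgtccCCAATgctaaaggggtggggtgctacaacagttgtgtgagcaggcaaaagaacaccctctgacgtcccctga
The motifs, searched on both strands, were the nuclear factor I palindrome, the STAT motif TTCNNNGAA, the AP-1 motif TGANTCA and the CCAAT box. Of 32851 RefSeq windows of this length, 0.703% held the first, 7.02% the STAT motif, 6.75% the AP-1 motif and 33.8% a CCAAT box. The window of Gfap held none of the 4, that of Gja1 held 1 AP-1 match beginning 19 bases before the start, and that of Slc1a3 held 1 STAT match at 96 bases and CCAAT boxes at 233, 216 and 72 bases. Of the 10 genes, 8 had a window (9 windows, as Aldoc has 2 starts), and among these 9 windows 0 held the nuclear factor I palindrome, 2 the STAT motif, 1 the AP-1 motif and 4 a CCAAT box. Aqp4 and Sox9 had none in the table.

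Reads assigned to genes, in units of 1000000, ranged from 36.9 to 69.1 per PFC library and from 39.0 to 380.8 per Hypo library, and the fewest reads of any of the 10 genes in any library were 781, for Sox9. Ube3a checked the labels: it ranged from 191 to 269 reads per 1000000 (CPM, with libraries scaled by the trimmed mean of M values, TMM) in WT and from 666 to 2249 in Ube3a2X PFC, and from 109 to 352 in WT and from 729 to 1693 in Ube3a2X Hypo, without overlap. RNA integrity numbers (RIN) were lower in the PFC (median 7.60) than in the Hypo (median 8.95). By the share of coding bases, 4 libraries stood apart: PFC Ube3a2X male 258 (51.0%), PFC WT female 397 (51.9%) and PFC Ube3a2X female 468 (48.9%), against 42.3 to 46.0% in the other PFC libraries, and Hypo WT female 471 (37.5%), against 46.2 to 51.1%. The tissue differences of the 10 genes are given with and without them.

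To ask how the astrocyte genes differ between the 2 regions, Hypo was compared with PFC in 1 fit of all 38 libraries with RIN as covariate. Gfap, Gja1, Aqp4 and Aldoc were higher in the Hypo, Slc1a2 and Glul were lower, and Slc1a3, Aldh1l1, S100b and Sox9 did not pass the test. Calls were made where edgeR's quasi-likelihood p, adjusted by Benjamini-Hochberg over all genes, was below 0.05. By this measure 6 of the 10 genes were called, 4 higher and 2 lower, where 68.4% of the 14219 genes tested were called, 35.6% higher and 32.8% lower, so the count of called members was near the background. The median log2 difference of the 10 was 0.16, beside 0.02 over all genes. When 1 library was left out, the median of the members ran from 0.12 to 0.30.

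**Figure D1:**
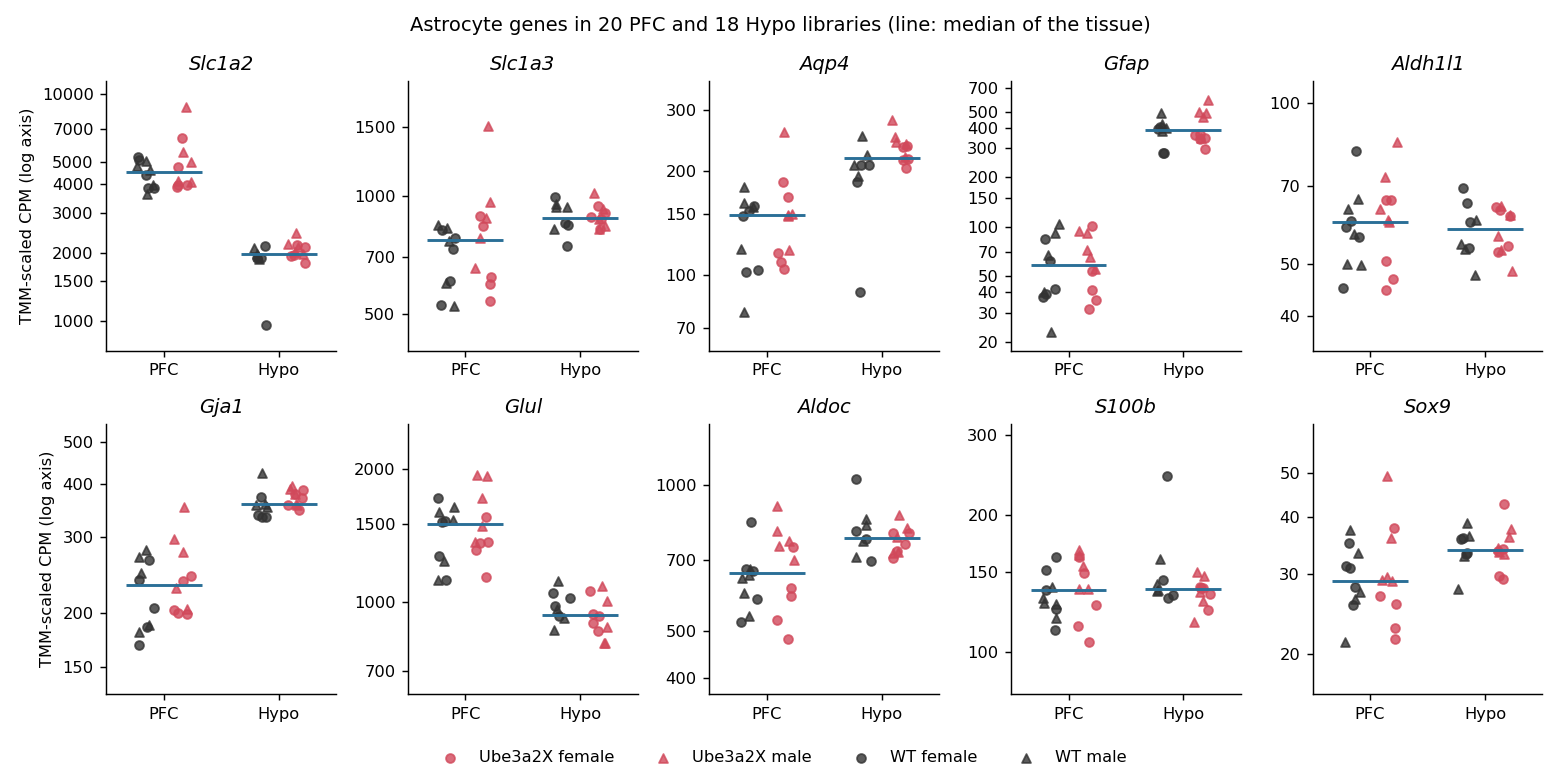
TMM-scaled CPM (log axis) of each astrocyte gene in every library, by tissue on the horizontal axis, with colour for genotype, symbol for sex and a line at the median of the tissue. Gfap in the 18 Hypo libraries (279 to 591) lay above all 20 PFC libraries (22.9 to 105), and Slc1a2 in the Hypo (962 to 2442) lay below all PFC libraries (3629 to 8771).

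The filament gene Gfap differed most among the 10. Its level was 22.9 CPM in the lowest, 58.6 in the median and 105 in the highest PFC library, and 279, 386 and 591 in the Hypo. No library of either tissue reached into the range of the other. The difference was 3.08 on the log2 scale (SE 0.24, adjusted p = 9.65e-14), or 8.45-fold, and Gfap was higher in the Hypo in 13 of 13 mice with both tissues, by 1.76 to 4.06. It was also the gene that varied most among PFC libraries, with an SD of 0.64 in log2-CPM, against 0.20 to 0.39 for the other 9.

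The glutamate transporter Slc1a2 went the other way. In the PFC it ranged from 3629 over a median of 4513 to 8771 CPM, and in the Hypo from 962 over 1973 to 2442. Again the tissues did not overlap. It was 2.52-fold lower in the Hypo (log2 difference -1.33, SE 0.14, adjusted p = 4.15e-10), and lower in 13 of 13 mice. The highest PFC value came from Ube3a2X male 258 and the lowest Hypo value from WT female 471, both among the libraries that stood apart. Without those 4 libraries the log2 difference was -1.01, still called.

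Slc1a3, its partner in glutamate uptake, did not follow. The PFC libraries ran from 524 over a median of 773 to 1506 CPM and the Hypo libraries from 745 over 879 to 1015, so that the Hypo lay inside the range of the PFC, and 9 of 13 mice were higher in the Hypo. The log2 difference was 0.16 (SE 0.13, adjusted p = 0.277; interval of 1.96 SE from -0.10 to 0.42). Slc1a3 was the member whose call moved most with the libraries used: without PFC Ube3a2X male 258 it was 0.33 (adjusted p = 0.0110), and without all 4 libraries 0.44, also called. In separate fits it was 0.35 in the WT libraries (adjusted p = 0.0326) and -0.17 in the Ube3a2X libraries (adjusted p = 0.599). The fit of all 38 libraries gave 0.28 within WT (SE 0.14, adjusted p = 0.0882) and 0.04 within Ube3a2X (SE 0.17, adjusted p = 0.836), and neither passed there. In that fit the tissue difference within Ube3a2X minus that within WT was -0.24 (SE 0.17, adjusted p = 0.748). It was -0.07 without the 4 libraries.

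Glul, which uses the glutamate taken up, was lower in the Hypo. It ranged from 1121 over 1500 to 1939 CPM in the PFC and from 808 over 936 to 1119 in the Hypo, and the ranges did not overlap, if by little. The log2 difference was -0.47 (SE 0.09, adjusted p = 2.53e-05), a 1.39-fold lower level, and all 13 mice showed it. With the mouse as a block in those 13 mice it was -0.36 and no longer passed (adjusted p = 0.142). Together with Gfap and Slc1a2, Glul was 1 of 3 members without overlap between tissues, where 25.9% of all genes tested had none.

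The contact and channel genes were both higher in the Hypo. Gja1 (connexin 43) went from 169 over 233 to 353 CPM in the PFC and from 334 over 359 to 423 in the Hypo. Only PFC Ube3a2X male 258, at 353, lay within the Hypo range. The log2 difference was 0.67 (SE 0.10, adjusted p = 5.43e-07), and 13 of 13 mice were higher in the Hypo. Aqp4 went from 78.0 over 149 to 260 CPM in the PFC and from 89.0 over 218 to 281 in the Hypo, with a log2 difference of 0.58 (SE 0.17, adjusted p = 0.00377), and was higher in 12 of 13 mice. The tissues overlapped for Aqp4 through Hypo WT female 471 at 89.0 and PFC Ube3a2X male 258 at 260. Without the 4 libraries that stood apart the ranges were 78.0 to 179 and 186 to 281, and the difference was 0.89 (SE 0.14, adjusted p = 1.53e-06). Within Ube3a2X the Aqp4 difference was 0.64 and passed in the fit of all 38 libraries (SE 0.22, adjusted p = 0.0142), and it was 0.30 and did not pass when the Ube3a2X libraries were fitted by themselves (adjusted p = 0.383).

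Among the broad markers, Aldoc was higher in the Hypo by 0.35 (SE 0.09, adjusted p = 0.000939), with 482 over 659 to 906 CPM in the PFC and 696 over 778 to 1028 in the Hypo, and was higher in 10 of 13 mice. The tissues overlapped for Aldoc and for the other 3 genes. Aldh1l1 ran from 44.9 over 60.1 to 84.5 CPM in PFC libraries and from 47.8 over 58.2 to 69.4 in Hypo libraries. S100b ran from 105 over 136.9 to 167 and from 117 over 137.3 to 243, where the 243 came from WT female 471 and the next lay at 160.0. Sox9 ran from 21.3 over 29.0 to 49.2 and from 27.8 over 33.8 to 42.8. For each of the 3 most libraries of one tissue lay within the range of the other. Their log2 differences were 0.16 (SE 0.10, adjusted p = 0.153), 0.06 (SE 0.11, adjusted p = 0.620) and 0.12 (SE 0.12, adjusted p = 0.391), and their intervals of 1.96 SE ran from -0.03 to 0.35, from -0.15 to 0.27 and from -0.12 to 0.37. Within the 13 mice, Aldh1l1 was lower in the Hypo in 9, S100b higher in 7 and Sox9 higher in 11.

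**Figure D2:**
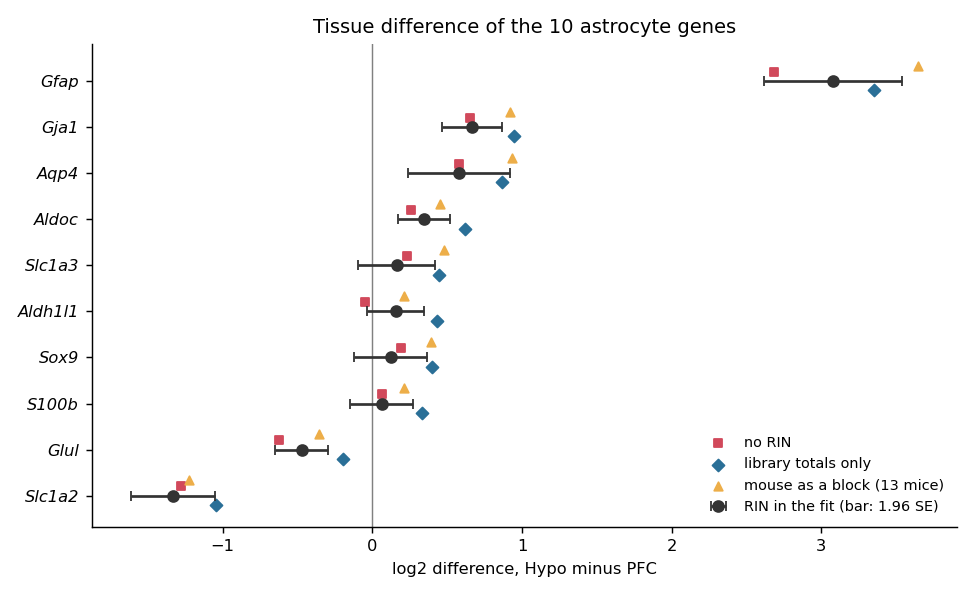
Log2 difference, Hypo minus PFC, of each astrocyte gene with RIN in the fit (circles, bars of 1.96 SE), without RIN, with library totals in place of TMM factors, and with the mouse as a block in the 13 mice with both tissues. Gfap (3.08) and Slc1a2 (-1.33) lie far from the other 8 under each of the 4 settings.

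Libraries, RIN and scaling moved the smaller differences. Without the 4 libraries that stood apart Sox9 was at 0.27 (SE 0.12, adjusted p = 0.0534), beside 0.12 with them, Gja1 at 0.81 and Glul at -0.40. Gfap was then at 3.02, Aldoc at 0.35, Aldh1l1 at 0.14 and S100b at 0.03, and of these 7 genes those called were again Gja1, Glul, Gfap and Aldoc. Without RIN, Slc1a3 (0.23, adjusted p = 0.012) and Sox9 (0.19, adjusted p = 0.0236) were called and Aldh1l1 was -0.05, where 79.5% of all genes were called. With library totals in place of TMM factors the median of all genes rose from 0.02 to 0.30, and all 10 members were called, as were 74.2% of all genes. Under that scaling Gfap was at 3.35, Slc1a2 at -1.05 and Glul at -0.20.

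In the 4 combinations of sex and genotype, the tissue difference of Gfap was 2.98 (WT females), 3.13 (Ube3a2X females), 3.04 (WT males) and 3.17 (Ube3a2X males). Slc1a2 was at -1.43, -1.26, -1.20 and -1.43 in the same order. Gja1 was at 0.71, 0.78, 0.69 and 0.48, and Glul was at -0.41, -0.35, -0.46 and -0.68, all 4 genes past the test in all 4 groups. Aldoc passed in 3 of the 4 groups, Aqp4 in 2 (Ube3a2X females and WT males) and Aldh1l1 in 1 (Ube3a2X females, 0.34). In the same order of groups 5, 7, 6 and 4 of the 10 members were called. Of the 14219 genes tested 56.4, 57.5, 56.5 and 52.5% were called, so these counts were near the background. Whether the tissue difference depends on genotype was tested as its own contrast, given with the genotype effects.

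Levels between genes were compared per kilobase of exon. In the PFC (20 libraries), Glul led with a mean of 443 CPM per kilobase (337 to 583), followed by Slc1a2 at 362 (276 to 668), Aldoc at 203 (148 to 278), S100b at 92.6 (70.9 to 113) and Slc1a3 at 89.5 (61.4 to 176). Below these came Aqp4 at 23.0, Gja1 at 22.8, Gfap at 14.6, Aldh1l1 at 13.3 and Sox9 at 7.32. Within a PFC library, S100b exceeded Slc1a3 in 13 of 20, Aqp4 exceeded Gja1 in 9 of 20 and Gfap exceeded Aldh1l1 in 10 of 20, so these neighbours had no settled order. In the Hypo (18 libraries) the order of the means was Glul at 287 (243 to 337), Aldoc at 241 (213 to 315), Slc1a2 at 150 (73.3 to 186), Slc1a3 at 104 (87.3 to 119), S100b at 96.5 (78.5 to 164) and Gfap at 94.2 (66.1 to 140), and then Gja1 at 35.7, Aqp4 at 34.9, Aldh1l1 at 12.8 and Sox9 at 8.31. There S100b exceeded Gfap in 10 of 18 libraries and Gja1 exceeded Aqp4 in 10 of 18.

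Ratios within a library do not depend on how libraries are scaled. PFC libraries held 5.32 to 7.32 reads of Slc1a2 per read of Slc1a3, with a median of 6.26, and Hypo libraries held 1.29 to 2.46, with a median of 2.27. The lowest Hypo value came from WT female 471. Without the 4 libraries that stood apart the Hypo ran from 2.01 to 2.46 and the log2 difference between the tissues was -1.47, beside -1.53 with them. The log2 ratio was lower in the Hypo (difference -1.53, or 2.88-fold; two-sided permutation test within sex and genotype, adjusted p = 1e-05, the smallest that the 100000 permutations allow). Within mice it was lower in 13 of 13, with a mean difference of -1.47 ± 0.18 (SD; exact sign-flip test, adjusted p = 0.000244, the smallest for 13 pairs).

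The ratio of Gfap to the broad marker Aldh1l1 moved further and upward. It ran from 0.458 to 1.58 in the PFC, with a median of 0.980, and from 4.66 to 10.3 in the Hypo, with a median of 6.55. The log2 ratio was higher in the Hypo by 2.82 (7.06-fold; same permutation test, adjusted p = 1e-05), and by 2.90 ± 0.49 within mice, in 13 of 13 (exact sign-flip test, adjusted p = 0.000244). Over the 4 groups of each tissue the median of this ratio was between 0.812 and 1.17 in the PFC and between 5.49 and 8.16 in the Hypo. Both ratios pair genes whose tissue difference is given above and are no independent support for it.

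**Figure D3:**
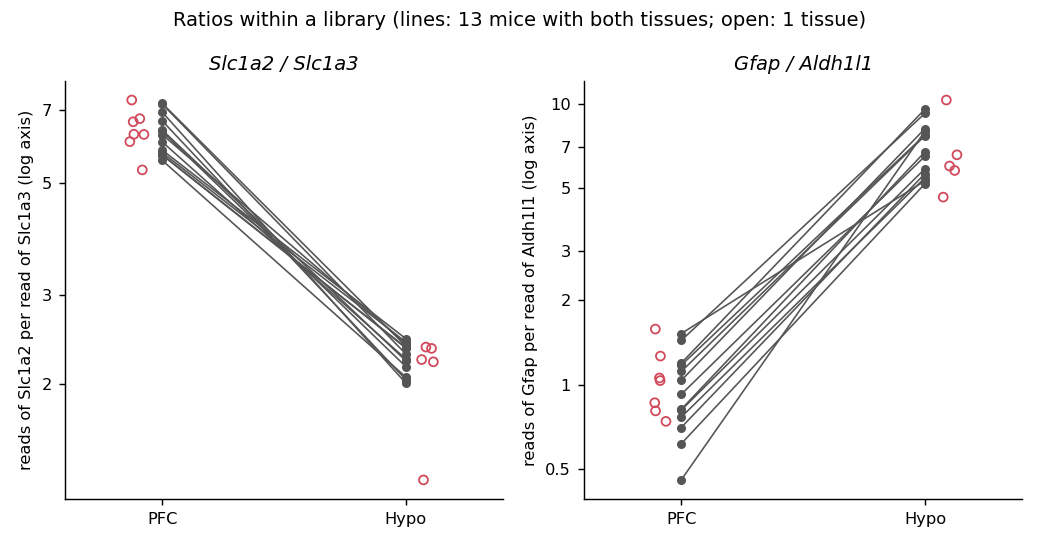
Reads of Slc1a2 per read of Slc1a3 (left) and of Gfap per read of Aldh1l1 (right) in each library, on log axes, with lines joining the 2 tissues of the 13 mice that gave both and open circles for mice with 1 tissue. All 13 lines fall on the left and all 13 rise on the right.

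Other genes of astrocytes were read from lists, whose counts stand beside the 35.6% of all genes tested that were higher in the Hypo and the 32.8% that were lower. Of 40 further astrocyte genes, 26 were higher in the Hypo, 6 lower and 8 not called, with a median log2 difference of 0.52. Itih3 (3.52, SE 0.11) and the GABA transporter Slc6a11 (2.47, SE 0.11) led those higher, and Chrdl1 (-3.90, SE 0.18) and the deiodinase Dio2 (-3.13, SE 0.19) led those lower. The 40 summed to 6881 to 13262 CPM in PFC libraries and to 11592 to 14811 in Hypo libraries. The 10 members, among which Slc1a2 has the most reads, summed to 6470 to 13970 and to 4839 to 6343.

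Short lists of markers known to set astrocytes of the telencephalon apart from those of other brain regions were read as well. All 4 telencephalic markers were lower in the Hypo, among them the transcription factor Lhx2 (-3.45, SE 0.15), which cortical neurons express as well. Of 5 non-telencephalic markers 4 passed the filter, and these 4 were higher, led by angiotensinogen, Agt (6.20, SE 0.12; 2.11 to 4.53 CPM in PFC and 166 to 304 in Hypo libraries), and Sparc (3.67, SE 0.09). Of 30 genes known from reactive astrocytes, 18 passed the filter, and 14 of these were higher in the Hypo and 3 lower. C3 (4.78, SE 0.16) and Cd109 (4.47, SE 0.30) led, both at low levels (at most 10.8 and 8.57 CPM), and Osmr (-0.59, SE 0.21) and S100a10 (-0.58, SE 0.17) were lower.

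Genes that work with the members gave mixed counts, where 68.4% of all genes tested were called. Of 14 partners in glutamate and potassium clearance, 6 were higher and 5 lower. The potassium channel Kcnj10 (0.85, SE 0.12) and the glutamine carrier Slc38a1 (0.83, SE 0.08) were higher, and the metabotropic glutamate receptor Grm3 (-1.64, SE 0.12) was lower. Of 10 tested partners of the water channel and the gap junctions (11 listed), 4 were higher and 0 lower, with connexin 30, Gjb6, at 0.83 (SE 0.11) and Mlc1 at 0.82 (SE 0.10). Of 4 tested intermediate filament genes (5 listed), Vim was higher (1.01, SE 0.16) and Synm (-0.79, SE 0.10) and Plec (-0.34, SE 0.13) were lower. Of 12 transcription factors of the lineage, 4 were higher, led by Zbtb20 (1.41, SE 0.17) and Stat3 (1.04, SE 0.09), and 6 were lower, led by Nfix (-1.98, SE 0.12) and Nfib (-1.40, SE 0.09), which neurons also express. Of 16 tested paralogues of the members (19 listed), 8 were higher, with the transporter Slc1a6 (1.96, SE 0.14) and Aldh1l2 (1.79, SE 0.12) first, and 3 lower, with Slc1a1 at -0.87 (SE 0.06) and S100a10 again. Aldoa, which has 2 rows in the table, was read from the row with more reads.

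Markers of other cell types moved with the tissue as well, at counts again to be read against 35.6% of all genes higher and 32.8% lower, and their part in the differences of the members was not tested. All 8 ependymal markers were higher in the Hypo, and they summed to 6.95 to 11.7 CPM in PFC libraries and to 58.0 to 154 in Hypo libraries. Tmem212 and Ccdc153, first among them, had a median of 0 in the PFC and medians of 4.82 and 7.49 CPM in the Hypo. Tanycytes, the ventricular glia that share genes with astrocytes, had 6 of 10 tested markers higher and 3 lower, with Fndc3c1 (median 0 in the PFC and 4.74 CPM in the Hypo) and Gpr50 (6.97, SE 0.23) on one side and Crym (-3.96, SE 0.26) and Dio2 on the other. The list summed to 337 to 539 CPM in PFC libraries and to 270 to 570.5 in Hypo libraries. Both tested choroid plexus markers (6 listed) were higher, Clic6 by 7.25 (SE 0.16) and Kl by 2.49 (SE 0.17). All 10 oligodendrocyte markers were higher, with Mag at 1.28 (SE 0.21) and Mog at 1.26 (SE 0.19) and a sum of 1021 to 3586 CPM in PFC libraries and 3358 to 5787 in Hypo libraries, as were all 7 tested precursor markers, with C1ql1 at 1.02 (SE 0.19) and Neu4 at 0.69 (SE 0.09).

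Of 10 microglial markers 6 were lower and 0 higher, with P2ry12 at -1.12 (SE 0.11) and Aif1 at -1.04 (SE 0.11). Of 10 tested endothelial and mural markers 6 were lower and 0 higher, with Rgs5 at -0.89 (SE 0.12) and Flt1 at -0.78 (SE 0.15). Meningeal markers gave 2 higher, Dcn (1.55, SE 0.25) and Lum (0.89, SE 0.25), and 1 lower, Igf2 (-0.89, SE 0.28), of 6 tested. Neuronal markers were lower for 9 of 10, with Snap25 at -2.04 (SE 0.08) and Syt1 at -1.87 (SE 0.09), and the 10 summed to 13088 to 18208 CPM in PFC libraries and to 6563 to 7528 in Hypo libraries. Of 8 excitatory markers 7 were lower, led by Slc17a7 (-10.27, SE 0.32), the vesicular glutamate transporter of cortical neurons, and Tbr1 (-7.04, SE 0.31), and 1 was higher, Slc17a6 (5.19, SE 0.13), the transporter of subcortical neurons. Inhibitory markers gave 3 higher, with Gad2 at 0.81 (SE 0.10) and Slc32a1 at 0.70 (SE 0.20), and 3 lower, with Lhx6 at -2.46 (SE 0.17) and Pvalb at -2.07 (SE 0.25), of 8.

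Among mice of the same sex, genotype and tissue, the 10 genes moved together in the PFC. Over 20 libraries, Pearson's r of log2-CPM centered on the group mean was positive for 45 of 45 pairs, from 0.09 (Slc1a2 with Aldh1l1) to 0.94 (Slc1a2 with Slc1a3), with a median of 0.59 (median Spearman's rho 0.64). Slc1a2, Slc1a3, Aqp4 and Gja1 lay at 0.81 or above with each other, among them 0.93 for Slc1a3 with Aqp4 and 0.92 for Slc1a3 with Gja1. Without the 3 PFC libraries that stood apart the median was 0.74 and again 45 of 45 pairs were positive. These are descriptions of libraries that share tissue pieces and scaling, with no test. Gldc (0.96), Axl (0.96), Arhgef26 (0.95), Suclg2 (0.95) and Pea15a (0.95) had the highest r to the mean of the standardized members among 10724 genes outside the lists.

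In the Hypo the same genes did not move as a block. Over 18 libraries 25 of 45 pairs were positive, and r ran from -0.80 (Slc1a2 with S100b) to 0.93 (Slc1a2 with Aqp4), with a median of 0.14 (median Spearman's rho 0.18). Both extremes rested on WT female 471, which held 962 CPM of Slc1a2, 89.0 of Aqp4 and 243 of S100b. Without it Slc1a2 with Aqp4 was at 0.56 and Slc1a2 with S100b at 0.07, 31 of 45 pairs were positive, the median was 0.25, and the range ran from -0.47 (Slc1a3 with Aldh1l1) to 0.90 (Aldh1l1 with Aldoc). The SD of log2-CPM over all libraries was 0.09 for Gja1 and 0.11 for Slc1a3 in the Hypo, against 0.28 and 0.36 in the PFC. For Slc1a2 it was 0.27 against 0.30, for Aqp4 0.35 against 0.39 and for S100b 0.22 against 0.20. Without the libraries that stood apart in each tissue these 3 were at 0.11 against 0.18, 0.15 against 0.34 and 0.10 against 0.18. The genes with the highest r to the members' mean, Hsdl2 (0.71), Gm2115 (0.67), Adamts1 (0.66), Tifa (0.66) and Trp63 (0.66) of 11693, were less close than those of the PFC. The difference between the tissues in co-variation was not tested.

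**Figure D4:**
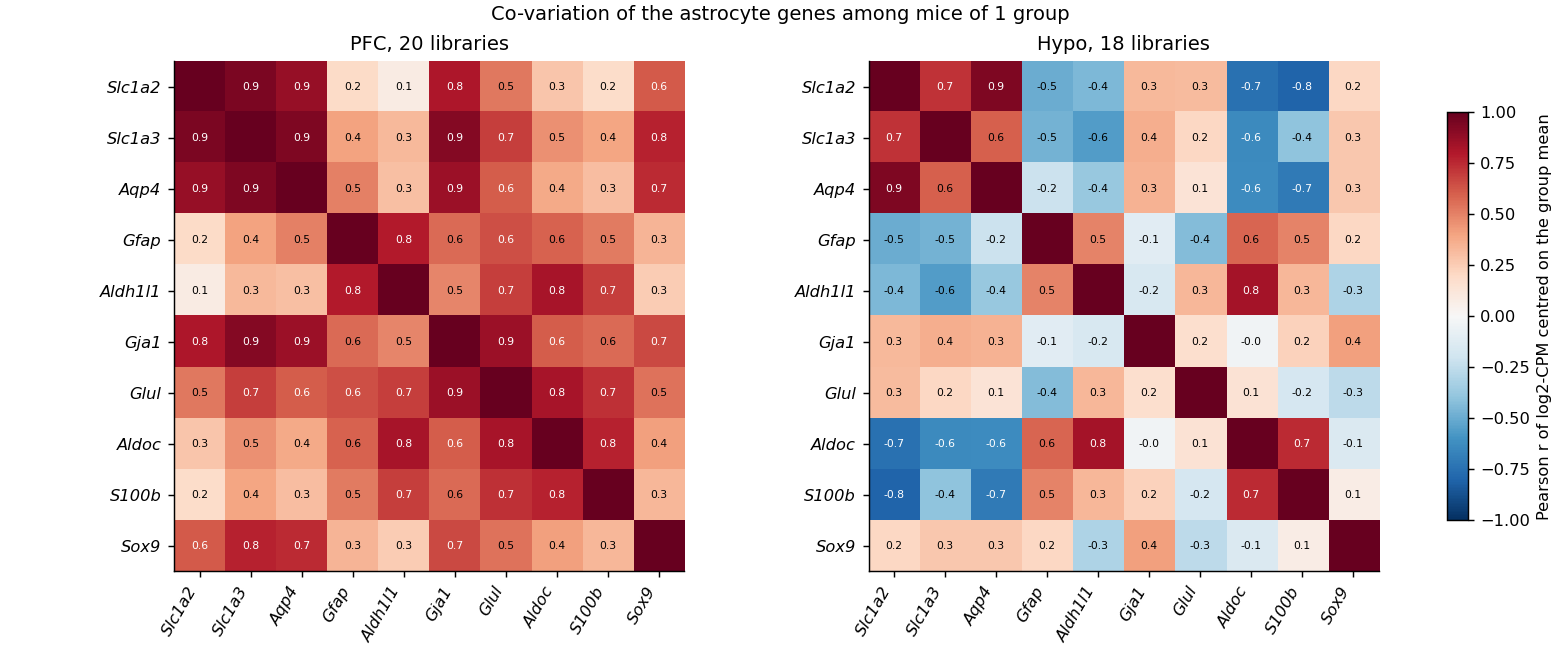
Pearson's r between log2-CPM values of the astrocyte genes, centered on the mean of each sex and genotype, in 20 PFC libraries (left) and 18 Hypo libraries (right). All 45 pairs are positive in the PFC, while 25 of 45 are positive in the Hypo. There the pairs of Slc1a2, Slc1a3 and Aqp4 with Aldoc, S100b, Aldh1l1 and Gfap are negative, resting in part on WT female 471. Without it Aqp4 with S100b goes from -0.71 to 0.53 and Slc1a2 with Aldoc from -0.74 to -0.28.

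The study asked what extra Ube3a does to gene expression, and in which sex. No astrocyte gene was called for genotype in the PFC, where edgeR called 2 of 10900 genes (0.0183%), with 864 whose unadjusted p was below 0.05, and DESeq2 called 29. The log2 differences, Ube3a2X minus WT, ran from -0.00 (Sox9) to 0.12 (Slc1a3), with a median of 0.06 beside 0.01 over all genes. Slc1a3 ranged from 524 over a median of 748 to 842 CPM in WT and from 540 over 808 to 1506 in Ube3a2X (adjusted p = 0.677), and S100b was at 0.11 (adjusted p = 0.742). The intervals of 1.96 SE of the 10 genes lay within -0.33 and 0.46, widest for Gfap.

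In the Hypo no tested member was called for genotype either, among 1 called gene of 11869 (0.00843%), with 605 whose unadjusted p was below 0.05, and DESeq2 called 5. Gja1 and Slc1a3 varied so little there that the filter on variance removed them, and 8 members were tested. Their differences ran from -0.05 (Sox9) to 0.15 (Gfap), with a median of 0.03. Gfap ranged from 279 over 395 to 495 CPM in WT and from 298 over 364 to 591 in Ube3a2X, which overlapped throughout (adjusted p = 0.949). Without the variance filter Gja1 was at 0.04 (SE 0.04) and Slc1a3 at -0.07 (SE 0.03), neither called. The difference of the genotype effect between the tissues was called for 0 members and 0 of 14219 genes (0%, with 1231 whose unadjusted p was below 0.05), DESeq2 called 0 genes and limma-voom 3, and the members ran from -0.27 (S100b, adjusted p = 0.603) to 0.14 (Gfap, adjusted p = 0.934). Without the 4 libraries that stood apart S100b was at -0.14 (adjusted p = 0.939).

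In the PFC the genotype effect was compared between the sexes, and no member passed the test. All 10 differences, male minus female, were above 0, from 0.10 (Gfap) to 0.40 (Aldoc), with a median of 0.26 beside 0.00 over all genes. Of all genes tested 50.1% were above 0. Some other lists shared the direction, with no gene of them called: 36 of 40 further astrocyte genes were above 0 (median 0.36), as were 10 of 10 oligodendrocyte markers (0.25), 7 of 7 precursor markers (0.42), 10 of 10 endothelial and mural markers (0.31) and 9 of 10 microglial markers (0.19). Of the neuronal markers 2 of 10 were above 0 (-0.07), of the excitatory markers 2 of 7 (-0.16) and of the inhibitory markers 4 of 7 (0.14). Tanycyte markers had 4 of 8 above 0 (-0.01), meningeal markers 2 of 5 (-0.03) and ependymal markers 1 of 2 (0.00). Partners in glutamate and potassium clearance had 7 of 12 above 0 (0.17) and paralogues 9 of 15 (0.09). The part of these in the values of the members was not tested. Aldoc was at 0.40 (SE 0.15, adjusted p = 0.122), Slc1a3 at 0.37 (SE 0.13, adjusted p = 0.111) and Slc1a2 at 0.32 (SE 0.12, adjusted p = 0.115). None of the 10900 genes was called by edgeR (0%, with 2766 whose unadjusted p was below 0.05) or limma-voom, and DESeq2 called 712 genes and no member. The study itself used limma-voom, kept more genes after its filters, and reported many PFC genes with this interaction. It reported astrocyte markers enriched among those up in Ube3a2X males and down in Ube3a2X females. Some of its genes were also measured by quantitative RT-PCR in other mice. The reason for the unlike counts was not tested. With an unadjusted p below 0.05, 3 members were above 0 (Aldoc, Slc1a3 and Slc1a2), where 13.2% of all genes were. In males the genotype differences ran from 0.11 to 0.30, and in females from -0.18 to 0.02.

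The values of Slc1a3, the transporter of radial and Bergmann glia as well, are given by mouse. PFC WT females held 818, 606, 730, 783 and 528 CPM, and Ube3a2X females 540, 597, 621, 835 and 886. WT males held 830, 524, 599, 767 and 842, and Ube3a2X males 654, 877, 1506, 966 and 780. All 4 groups overlapped, and male 258 stood above every other library. Aldoc, the glycolytic aldolase, showed a smaller spread, with 838, 583, 672, 666 and 523 CPM in WT females and 526, 592, 615, 747 and 482 in Ube3a2X females. WT males held 642, 598, 537, 672 and 652 and Ube3a2X males 767, 748, 803, 906 and 700. For Aldoc every Ube3a2X male lay above every WT male, while the females overlapped. Aldoc was the 1 member of 10 with that order, which 0.872% of all genes tested had, and it was picked after its values were seen.

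The interaction of the members depended on the libraries and on the covariates. When the 3 PFC libraries that stood apart by coding share were left out and RIN and new surrogate variables were fitted to the other 17, the 10 differences ran from -0.12 (Aqp4) to 0.08 (Slc1a2), with 5 above 0 and a median of 0.00, Aldoc was at -0.02, and of 11128 genes 0 were called and 106 had an unadjusted p below 0.05. The same differences taken from the group means of log2-CPM, with no covariate and no test, were above 0 for 10 of 10 members with all 20 libraries (0.18 to 0.49, median 0.35) and with the 17 (0.12 to 0.40, median 0.23), and Aldoc was at 0.49 and at 0.40. Leaving out 1 library in turn in the fit kept all values of Slc1a2, Slc1a3 and Aldoc above 0 (0.13 to 0.54), and 2 members (Aldoc and Slc1a3) passed without Ube3a2X female 462, where 707 genes (6.49%) were called, and 3 (those and Aldh1l1) without WT female 93, where 1723 genes (15.8%) were. Reads on the correct strand made up 92.5 to 95.6% in WT and 91.5 to 99.1% in Ube3a2X PFC libraries. As a fraction, Ube3a2X males 238, 253, 258, 267 and 402 had 0.991, 0.991, 0.921, 0.982 and 0.991. WT males had 0.926 to 0.952. Ube3a2X females 272, 417, 420, 462 and 468 had 0.925, 0.915, 0.939, 0.984 and 0.974, and WT females 0.925 to 0.956. With RIN and this share in the fit, 0 members were called. In 9 of 10 other settings, that fit among them, Aldoc was at 0.32 to 0.53. The part of the share in these values was not tested beyond that fit. In the Hypo the interaction ran from -0.12 (Aqp4) to 0.12 (Glul) over 8 members, with 0 called of 11869 genes (0%, with 872 whose unadjusted p was below 0.05, and 0 by DESeq2).

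**Figure D5:**
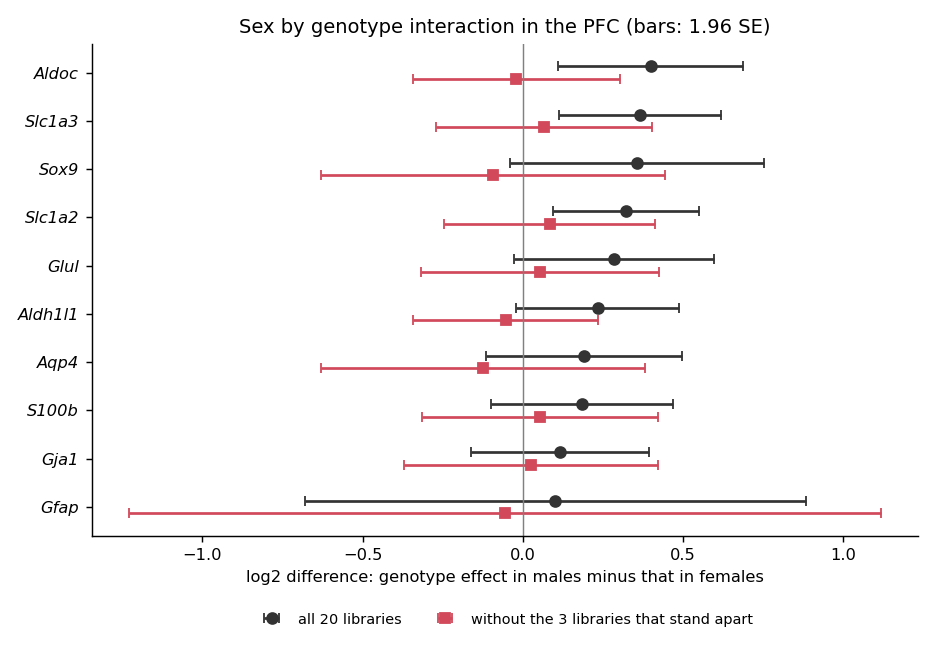
Sex by genotype interaction in the PFC for each astrocyte gene: the log2 genotype effect in males minus that in females, with bars of 1.96 SE, from all 20 libraries (circles) and in the refit, with its own surrogate variables, without the 3 libraries that stood apart (squares). The circles lie between 0.10 and 0.40 and the squares between -0.12 and 0.08.

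Between the sexes, Gfap was the member that differed, and in the Hypo. The 9 female libraries held 279 CPM at the lowest, 345 at the median and 402 at the highest, and the 9 male libraries 346, 462 and 591. The sexes overlapped in the span from 346 to 402. Gfap was higher in males by 0.52 on the log2 scale (SE 0.10, adjusted p = 0.0127), 1 of 8 tested members to pass where 277 of 11869 genes (2.33%) did, 157 of them higher in males (1.32%). The other 7 ran from -0.10 (Glul) to 0.11 (Aqp4).

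The call of Gfap depended on the covariates. With RIN and 2 surrogate variables it passed, and it was as large without Hypo WT female 471 (0.53, still called). With RIN alone it was 0.42 (adjusted p = 0.191), with RIN and the strand share 0.41 (adjusted p = 0.064), and without WT female 262 it was 0.50 (adjusted p = 0.055). RIN ran from 8.80 to 9.30 in female and from 6.80 to 9.30 in male Hypo libraries. In the PFC no member was called for sex, among 10 called genes (0.0917%), and Gfap was at -0.09 (SE 0.22) in that fit, with 31.6 over 41.4 to 101 CPM in females and 22.9 over 69.6 to 105 in males. Its direction changed with the covariates and its size with the libraries used. Without the 3 PFC libraries that stood apart it was -0.27 (SE 0.23, adjusted p = 0.836). With RIN alone and all 20 libraries it was 0.17 (SE 0.24, adjusted p = 0.974), and the group means of log2-CPM, with no covariate, were higher in males by 0.41, as they were by 0.41 in the Hypo. The difference of the sex effect between tissues, taken from the fit of all 38 libraries with RIN and no surrogate variable, was called for 9 genes (0.0633%) and for no member. For Gfap it was 0.05 (SE 0.29, adjusted p = 0.947) in that fit, which is another model than the one behind the 0.52 and the -0.09, so the sex effect was not shown to differ between the tissues.

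Other listed genes differed between the sexes in the Hypo as well, where 1.32% of all genes tested were higher in males, and those named here were chosen after their values were seen. Of 18 tested reactive genes 4 were, the filament gene Vim (0.27, SE 0.05, adjusted p = 0.0148), the protease inhibitor Serpina3n (0.38, SE 0.07, adjusted p = 0.0115), the complement gene C3 (0.50, SE 0.12, adjusted p = 0.0424) and Aspg (0.40, SE 0.10, adjusted p = 0.0492). Nes (0.33, SE 0.08) and the transcription factor Stat3 (0.32, SE 0.07) were higher too, and 0 of 29 tested genes of the further astrocyte list were called. Of 10 tested tanycyte markers 4 were higher in males (Crym, Fndc3c1, Nes and Vim) and 0 lower. Vim stands in the reactive, filament, paralogue and tanycyte lists and Nes in the filament and tanycyte lists, so that these counts share genes. Outside the astrocyte and tanycyte lists, the choroid plexus marker Kl (0.36, SE 0.07, adjusted p = 0.0168) and the excitatory marker Camk2a (0.20, SE 0.04, adjusted p = 0.0175) were higher in males. Lower in males were the ependymal marker Tmem212 (-0.43, SE 0.07, adjusted p = 0.00631) and Sox8, a paralogue of Sox9 (-0.17, SE 0.04, adjusted p = 0.0479). The tanycyte markers summed to 270 to 434 CPM in females and to 410 to 570.5 in males, with overlap between the sexes. Their part in the sex difference of Gfap was not tested.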

How the data were processed

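Per the labels and the study's methods, the authors prepared stranded mRNA libraries, aligned reads with STAR to GRCm38 and deposited raw read counts per gene from featureCounts, as well as a table of library quality. In it Picard gives base shares as fractions and biases as ratios, and RIN is a score that the authors measured on an Agilent Bioanalyzer. The strand setting of the counting was not given in the sources used here. Counts were tested as deposited with edgeR 4.0.16 (quasi-likelihood, TMM, Benjamini-Hochberg). Each tissue was fitted with 4 groups, RIN and 2 surrogate variables (sva 3.50.0), after removing genes under 100 reads in 2 or more libraries and then the lowest 15% by variance. The tissues were compared in 1 fit of 8 groups and RIN, over genes passing the read filter in either tissue. DESeq2 1.42.0 and limma-voom 3.58.1 were alternatives. Scripts were tested on simulated data. P-values within a tissue and of the sign-flip tests measure the spread between mice. Those of the fit of both tissues and of the permutation tests take libraries as independent, though 13 mice gave both tissues. Replicates were distinct: the most alike of 72 pairs differed 13.9 times more than sampling noise. Mouse numbers pair the tissues of 13 mice, whose deviations from group means correlated by -0.45 to 0.33 (median -0.05). Exon lengths and positions came from GENCODE vM21. Named genes were the 10 members, the 2 called genes per direction with the largest tissue difference in each list (further astrocyte genes, telencephalic, non-telencephalic and reactive markers, partners, filaments, transcription factors, paralogues and other cell types), the 5 closest genes per tissue outside the lists, and Ube3a; 2 of the list genes are not reported here. Listed genes called for sex in the Hypo were named outside this rule, after their values were seen. Members and lists were chosen with earlier results of these data known. The comparison of the sex effect between tissues and the fits and group means without libraries that stood apart, or with the strand share, were added after seeing the data.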

Additional observations from a re-analysis of the deposited data

Results flagged for a closer look

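In 5 of 80 sets of 1 gene in 1 group of 4 or 5 libraries, 1 library lay far from the others, by its gap to the nearest library as a share of the range of the group; chance gives this in about 1 in 20 groups. Slc1a3 in Hypo WT male 423 was the lowest of its group at 823 CPM, with the next at 936. Aqp4 in PFC Ube3a2X male 258, a library that stood apart by its coding share, was the highest at 260 CPM, with the next at 150. Gja1 was the highest at 372 CPM in Hypo WT female 262 (next 339) and at 423 in Hypo WT male 403 (next 359). S100b in Hypo WT female 471, the Hypo library that stood apart, was the highest at 243 CPM, with the next at 144.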

How the results depend on the processing

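Of the tissue differences, the 6 calls were kept when any 1 of the 38 libraries was left out (6 to 7 members called), and 5 to 10 members were called under other settings: 10 with library totals only, where the median of all genes moved from 0.02 to 0.30. Directions turned for Slc1a3 in Ube3a2X libraries only (-0.17) and for Aldh1l1 without RIN (-0.051), neither called. With the mouse as a fixed replicate block in the 13 pairs, 5 members were called (Gfap 3.65; Glul -0.36, lost) and 6482 genes beside 9725, and with a random block 6 members. In the PFC interaction, leaving out 1 library gave 0 to 3 members called, 712 genes were called by DESeq2 beside 0, and Aldoc was at -0.020 in the refit without the libraries that stood apart. For sex in the Hypo, 0 members were called with RIN only, with RIN and the strand share and with no filter and RIN only, and 0 to 1 when leaving out 1 library, and the genes called ran from 12 (RIN only) to 661 (DESeq2), and from 90 to 667 when leaving out 1 library, beside 277. The difference of the sex effect between tissues for Gfap was -0.0076 without RIN, -0.0027 with no filter and -0.13 to 0.22 when leaving out 1 library. Over all settings, those leaving out 1 library included, genes called for genotype ran from 1 to 29 (PFC) and 1 to 12 (Hypo, highest without WT male 403), for sex in the PFC from 0 to 41, for the sex effect between tissues from 0 to 36 and for genotype between tissues from 0 to 5, with 0 members in each. The causes of these changes were not tested. Region and RNA handling cannot be told apart, and RIN differed between the tissues.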
